A study of Drosophila melanogaster with 2 samples.

Results

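The trithorax group and chromatin remodelling genes described here are trx, brm, ash1, ash2, osa, mor, Iswi, kis, dom and Snr1, a list of 10 genes taken by name from the Ensembl annotation, out of 13968 protein-coding genes on the chromosome arms. Every peak of the binding profile of Poxn-eGFP whose summit lay inside one of these genes or within 2 kb of it was collected. Pox neuro (Poxn) is a transcription factor with a paired domain, known for its role in chemosensory organs. Its chromatin sites were mapped by ChIP-seq, the sequencing of immunoprecipitated chromatin, in 2 biological replicates of Drosophila melanogaster embryos, taken whole at 0 to 24 h of age and forming 1 group. All embryos came from a strain named Poxn-GFP that expresses a Poxn-eGFP fusion, and chromatin was sonicated to 200 to 800 bp. The sample descriptions give an antibody against GFP, but Poxn is what the antibody field says. Whole embryos mix all cell types, and the control experiment that the labels mention was not used here, so the values below describe 1 group and carry no test between conditions.

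Trithorax group proteins keep developmental genes active and oppose Polycomb group repression, which makes them known regulators of the homeotic genes in the embryo. Some are histone methyltransferases that mark active chromatin, and others are subunits of complexes that spend ATP to slide, evict or exchange nucleosomes. The Brahma complex, the fly form of SWI/SNF, contains the ATPase Brahma (brm), the core subunits Moira (mor) and Snr1, and, in one of its forms, the ARID-domain protein Osa. Trithorax (trx) and Ash1 are SET-domain methyltransferases, and Ash2 is a shared subunit of the COMPASS-type complexes that methylate histone H3. Imitation SWI (Iswi), Kismet (kis, a CHD-family protein) and Domino (dom, which exchanges histone H2A variants) are ATPases of other remodelling families.

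The deposited peak list for the pair of replicates, called the main set here, held 1488 peaks drawn from 146020 ranked candidates. Each peak has a signal value, the authors' enrichment value, which ranks peaks within a list only. Each candidate also has an irreproducible discovery rate (IDR), a measure of how well a peak's rank agrees between lists, and the deposited main set holds peaks with an IDR of 0.01 or less. The median signal was 81.2 in the main set, and replicate 1 alone gave 800 peaks and replicate 2 alone 979. The sources used here give no read depth, and the limit it sets on weak peaks is unknown.

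Main-set peaks lay at 4 of the 10 genes, osa, trx, brm and ash1, and there were 6 such peaks. Over all protein-coding genes 15.3% had a main-set summit in the gene or within 2 kb. Long genes hold more peaks, and the listed genes are long, with a median length of 10385.5 bp against 2164.5 bp over all protein-coding genes. Among protein-coding genes at least as long as the shortest listed gene the share was 19.4%. Among those at least as long as the median listed gene it was 28.3%, and 3 of the 5 listed genes of that length had a peak. The 6 peaks amounted to 3.21 per 100 kb of the listed genes with their flanks, against 1.05 per 100 kb over the arms, while ranked candidates were at 12.4 and 10.4 per 10 kb. Both trx and osa carried 2 peaks, and 2 or more were found at 2.23% of all protein-coding genes and at 7.87% of those at least as long as the median listed gene. All 6 peaks were also in the conservative list of the pair.

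The peaks differed widely in signal, and 1 of the 4 genes with a peak had one at its own promoter. Only brm had a main-set summit 500 bp or less from a transcription start site (TSS) of its own, 1 of 10 genes, against 7.72% of all protein-coding genes. Over all protein-coding genes, 2136 had a summit in the gene or within 2 kb, and 1079 of these had one within 500 bp of a TSS. A TSS of another gene lay closer to that summit, so 0 of 10 had a promoter peak that was nearest to their own TSS, against 5.50%. Inside the genes there were 3 summits, and the other 3 lay in the flanks. With no flank allowed, 2 genes and 3 peaks were left.

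**Figure D1:**
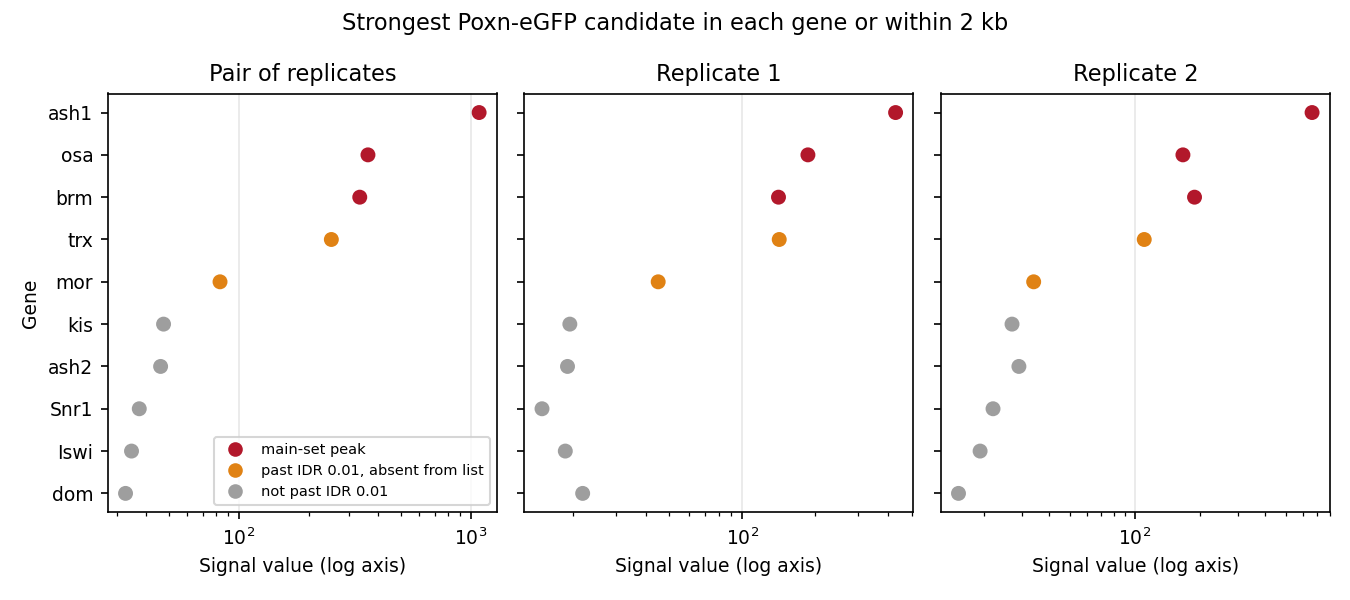
Signal value (log axis) of the strongest ranked candidate in each gene or within 2 kb, for the pair of replicates and for each replicate, with colours for main-set peaks, candidates past an IDR of 0.01 that are absent from the main set, and candidates not past it. In the panel of the pair, ash1 (1086), osa (360.4), brm (332.2), trx (250.6) and mor (83.0) stand above the other 5 genes, which lie between 32.5 and 47.4.

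Within the Brahma complex, brm had a strong peak in the short space it shares with its neighbour. The gene lies on the minus strand at chr3L:15970082-15982869, and its most upstream TSS is 266 bp from that of Arl1, a gene for an Arf-like small GTPase that runs the other way. The peak, at chr3L:15982924-15983095, had its summit 152 bp upstream of the TSS of brm and 114 bp upstream of that of Arl1, in sequence annotated as intergenic. Its signal was 332.2, rank 54 of the main set, with the highest −log10 IDR that the file gives, 5. The signal was 140.8 in replicate 1, rank 63 of that list, and 189.1 in replicate 2, rank 49, and the summits of the replicates were 8 bp apart. The peak thus stood near the top of both replicate lists, and which of the facing genes it belongs to cannot be told apart from its position. The peak itself is shown because it is the only one at a promoter of a listed gene. The bases up to 100 bp to either side of its summit, chr3L:15982921-15983121 on the plus strand of dm6 as in RefSeq release 6, read as follows, with the words AGTCACT and CACTG, on either strand, in capitals.
brm peak: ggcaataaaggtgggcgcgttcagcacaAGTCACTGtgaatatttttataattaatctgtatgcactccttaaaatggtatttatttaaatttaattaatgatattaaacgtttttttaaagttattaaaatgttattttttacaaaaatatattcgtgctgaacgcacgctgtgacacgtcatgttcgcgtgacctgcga

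A peak between facing promoters counts for both genes. Of the 10 genes, 7 have a protein-coding TSS facing theirs within 1 kb, and 1 of these 7 had a promoter peak. Among all 4913 protein-coding genes in that arrangement the share was 14.1%. In rank the nearest promoter peaks in the main set were those of CG31145, with a signal of 333.2 at rank 53 and 191 bp from the TSS, and of CG5098, with a signal of 329.1 at rank 55 and 156 bp from the TSS. Both of these were also in both replicate lists. They are likest to the brm peak by signal rank over the main set alone, in which it was number 39 of the 785 promoter peaks.

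The osa gene, at chr3R:17687818-17718350 on the minus strand, carried 2 strong peaks deep inside it and none at its start. Both lay in intron 4, which is the same intron in all 6 annotated transcripts. The first, at chr3R:17704321-17704494, was 13951 bp into the gene and had a signal of 360.4, rank 42. Its signal was 186.1 in replicate 1, rank 32, and 167.0 in replicate 2, rank 64. The summits in the replicates were 3 bp apart, and the position is also an exon of a noncoding gene on the opposite strand, lncRNA:CR46035, 704 bp from that gene's TSS. The second peak, at chr3R:17700421-17700724, was 17777 bp into the gene and had a signal of 238.2, rank 105. It had a signal of 99.8 in replicate 1, rank 134, and 145.4 in replicate 2, rank 86, with summits 10 bp apart. Its nearest TSS was that of lncRNA:CR46036, 168 bp away, with the summit upstream of it. Both osa peaks were thus high in both replicate lists, the first higher in replicate 1 by rank and the second in replicate 2. The windows around their summits, chr3R:17704299-17704499 and chr3R:17700473-17700673, are shown on the plus strand with the same words in capitals because they are the strongest sites inside any listed gene in the main set. The first holds both words and the second holds neither.
osa first peak: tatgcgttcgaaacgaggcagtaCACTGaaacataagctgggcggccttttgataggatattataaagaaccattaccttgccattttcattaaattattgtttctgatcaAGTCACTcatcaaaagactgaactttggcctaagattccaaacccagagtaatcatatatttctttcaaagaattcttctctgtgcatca
osa second peak: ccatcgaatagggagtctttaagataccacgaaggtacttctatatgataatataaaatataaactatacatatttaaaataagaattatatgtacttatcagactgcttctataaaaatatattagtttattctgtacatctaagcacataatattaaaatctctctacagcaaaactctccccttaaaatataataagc

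Peaks so far from a protein-coding start are uncommon in this profile. Of the main-set peaks on the arms, 99 lay more than 10 kb from every protein-coding TSS, with a median signal of 68.8. The osa peaks were number 2 and number 4 among these 99 by signal. At the start of osa itself the strongest candidate within 500 bp had a signal of 12.9 and was not past the IDR of 0.01.

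**Figure D2:**
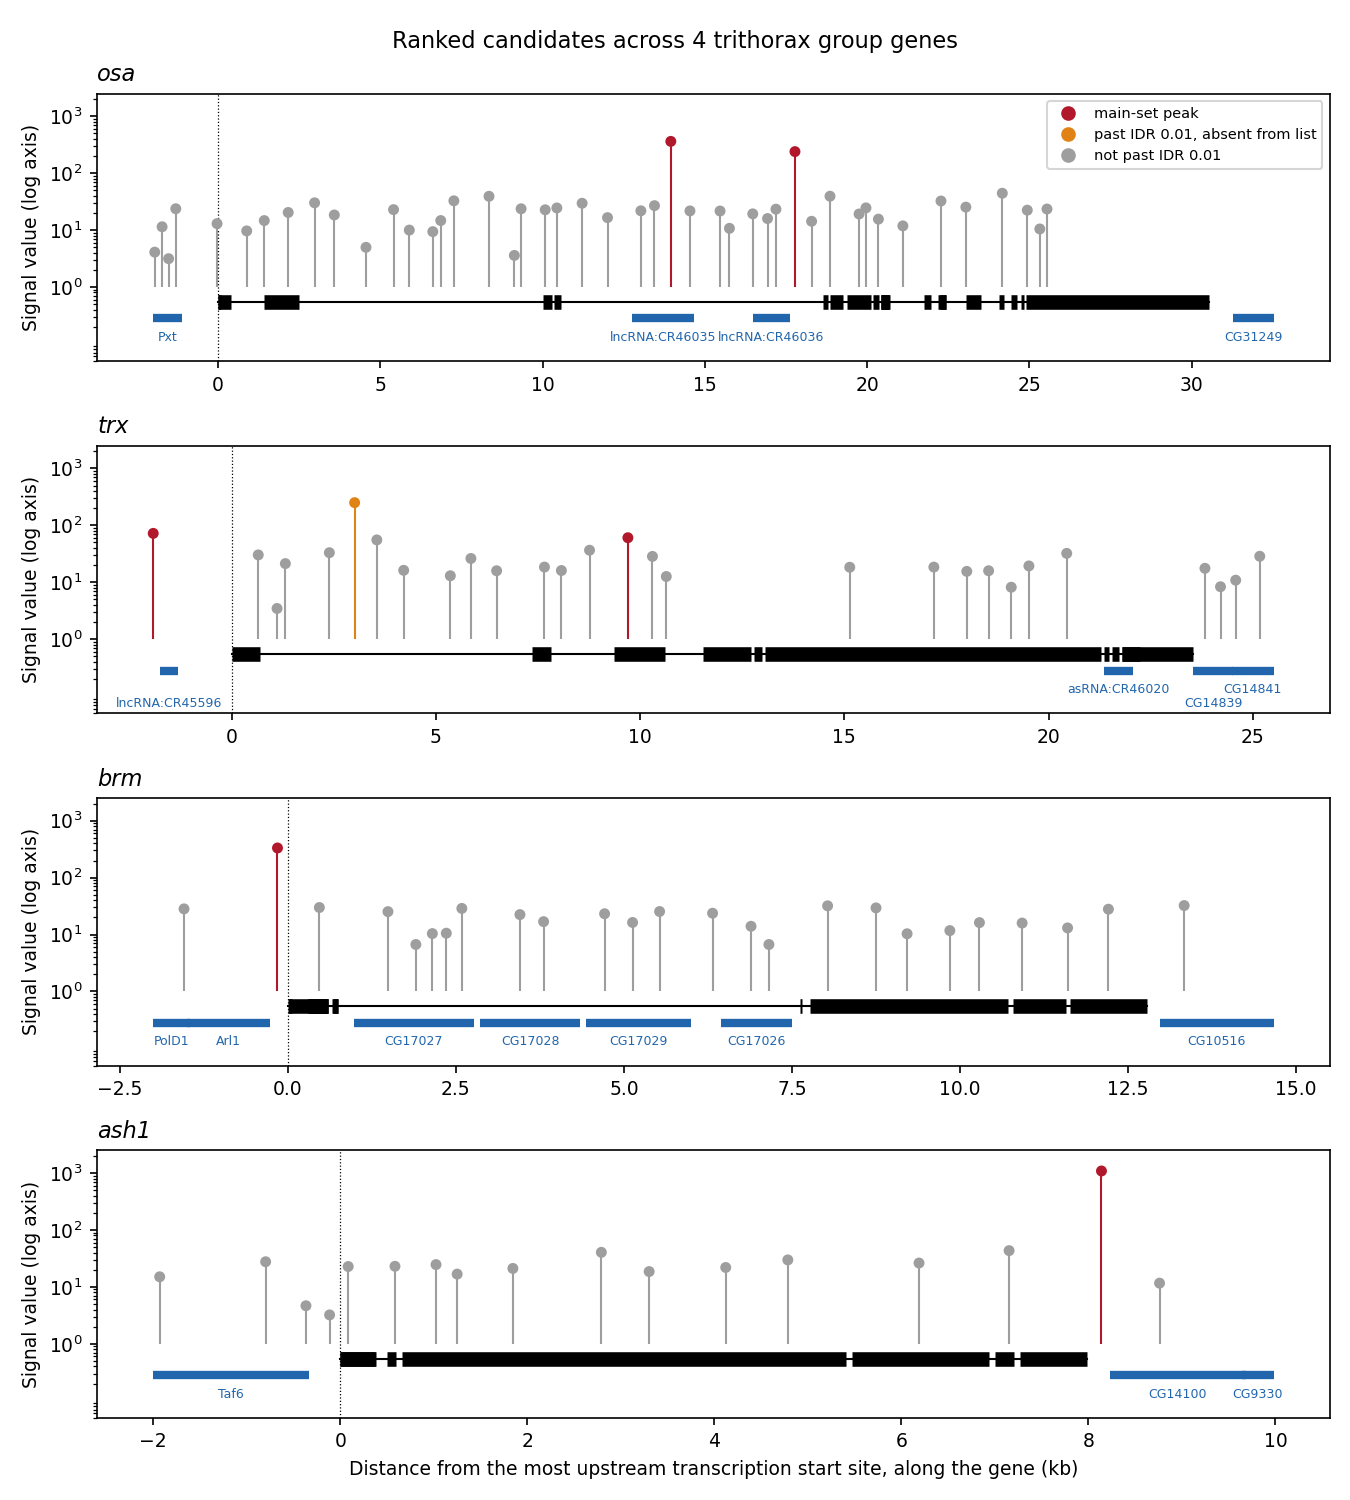
Signal value (log axis) of every ranked candidate in osa, trx, brm and ash1 and within 2 kb of them, against the distance of its summit from the most upstream TSS along the gene in kb. Black boxes are exons, blue bars are other genes, and the dotted line marks the TSS. The main-set peaks of osa stand at 13951 and 17777 bp, that of brm just upstream of its start and that of ash1 just past its end, each well above the grey candidates around it, while the highest stem in trx is the candidate absent from the main set.

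Moira and Snr1, the other subunits of the Brahma complex among the 10, had no main-set peak. At mor, at chr3R:15968134-15972913 on the minus strand, a candidate at chr3R:15974271-15974574 had a signal of 83.0 and a −log10 IDR of 2.59, past the IDR of 0.01, yet it is absent from the main set. Its summit lay 1510 bp upstream of mor, in an intron of Hel89B, a helicase gene that faces mor, 1125 bp from the start of Hel89B. The signal was 44.9 in replicate 1, where it was past the same IDR, and 34.0 in replicate 2, where it was not, and the summits were 27 bp apart. Nearer to mor, 138 bp upstream of its TSS, a weaker candidate had a signal of 47.9 and a −log10 IDR of 1.62, which is not past the threshold. Among the 10 genes only brm had a stronger candidate within 500 bp of a TSS. Snr1, at chr3R:5470926-5472754, is the shortest of the 10 at 1829 bp, and its strongest candidate lay in its own coding sequence with a signal of 37.2 and a −log10 IDR of 0.299. The signal there was 14.9 in replicate 1 and 22.0 in replicate 2. The window of the mor candidate, chr3R:15974323-15974523 on the plus strand, is shown because it is 1 of only 2 sites at these genes that are past the IDR and missing from the list, and it holds neither word.
mor candidate: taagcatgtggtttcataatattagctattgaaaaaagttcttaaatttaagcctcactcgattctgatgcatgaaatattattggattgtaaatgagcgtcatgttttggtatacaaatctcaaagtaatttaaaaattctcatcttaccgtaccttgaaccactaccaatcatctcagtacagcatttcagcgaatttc

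Among the histone methyltransferase genes, the strongest peak of the whole main set lay next to ash1. The Ash1 protein is known to methylate lysine 36 of histone H3. The gene is on the minus strand at chr3L:19590773-19598755, and the peak, at chr3L:19590484-19590761, had its summit 158 bp beyond the 3′ end of ash1 and 8140 bp from its TSS. The same summit was 91 bp upstream of the TSS of CG14100, the gene that follows. Its signal was 1086, rank 1, with 427.9 in replicate 1, rank 2, and 663.0 in replicate 2, rank 1. The replicate summits were 12 bp apart. The peak therefore counts for ash1 through the 2 kb flank and lies at the promoter of another gene, and at the start of ash1 the strongest candidate had a signal of 22.8. Its window, chr3L:19590515-19590715 on the plus strand, is shown as the highest site of the profile, with the same words in capitals.
ash1 peak: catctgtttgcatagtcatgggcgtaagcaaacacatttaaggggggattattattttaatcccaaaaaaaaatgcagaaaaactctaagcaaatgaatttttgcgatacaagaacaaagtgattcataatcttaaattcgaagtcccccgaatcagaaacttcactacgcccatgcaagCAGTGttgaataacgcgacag

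The trx gene, at chr3R:14263358-14286903 on the minus strand, had the most sites, 3 past the IDR of 0.01, of which the strongest is not in any thresholded list. Trithorax is known to methylate lysine 4 of histone H3 and is the founding member of the group. The first main-set peak, at chr3R:14288672-14288975, lay 1921 bp upstream of trx and 247 bp upstream of red, the gene that faces it. It had a signal of 72.3, rank 898, and was in the list of replicate 2 with a signal of 48.1, rank 647. In replicate 1 the candidate there had a signal of 24.2 and was not in the list. The second peak, at chr3R:14277051-14277354, lay 9700 bp into trx, in coding sequence of 2 of its 5 transcripts and in an intron of the others. It had a signal of 60.6, rank 1184, and was in the list of replicate 1 with a signal of 40.0, rank 690. In replicate 2 the signal was 24.7 and the site was not in the list. Each main-set peak of trx was thus carried by a different replicate, and both were under the median signal of the main set. The summits in the replicates were 21 bp apart at the first and 30 bp apart at the second, farther than at the 4 peaks of brm, ash1 and osa.

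The strongest candidate of trx lay in intron 1, at chr3R:14283811-14283937, 3010 bp downstream of the TSS. Its signal was 250.6, rank 100 of the ranked candidates, with a −log10 IDR of 4.61. In replicate 1 it had a signal of 141.7, rank 66 of the ranked candidates, and in replicate 2 a signal of 110.5, rank 161, with the highest −log10 IDR of 5 in both and summits 14 bp apart. It was past the IDR of 0.01 in all 4 ranked lists and absent from all 4 thresholded lists. Only 94 main-set peaks had a higher signal. The windows of this candidate, chr3R:14283793-14283993, and of the second main-set peak, chr3R:14277103-14277303, are shown on the plus strand with the words in capitals to contrast an AT-rich intronic site with a GC-rich exonic one. The first was 30.8% G or C and the second 59.7%.
trx candidate in intron 1: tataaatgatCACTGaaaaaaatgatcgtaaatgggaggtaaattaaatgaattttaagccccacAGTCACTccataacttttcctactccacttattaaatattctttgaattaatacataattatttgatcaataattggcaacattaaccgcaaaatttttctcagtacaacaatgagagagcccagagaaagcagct
trx second peak: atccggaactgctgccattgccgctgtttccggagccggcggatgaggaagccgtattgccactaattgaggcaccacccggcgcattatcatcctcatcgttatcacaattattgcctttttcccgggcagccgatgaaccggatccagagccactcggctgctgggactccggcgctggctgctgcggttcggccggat

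Of the 8 candidates past the IDR of 0.01 at the listed genes, 2 were absent from the main set, the one in trx and the one near mor. Over the arms 84 of 1533 such candidates were absent, which is 5.48%. By signal the trx candidate was number 5 and the mor candidate number 31 of those 84. Per the deposited notes, 1 more shared file went into the thresholded lists than into the ranked ones, and its part in the absence of these sites was not tested. Arm 3R, which holds trx and mor, had 24 of the 84, arm X had 28, 2L had 15, 2R had 14, 3L had 2 and arm 4 had 1. These are counts and not shares of the candidates past the IDR on each arm.

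**Figure D3:**
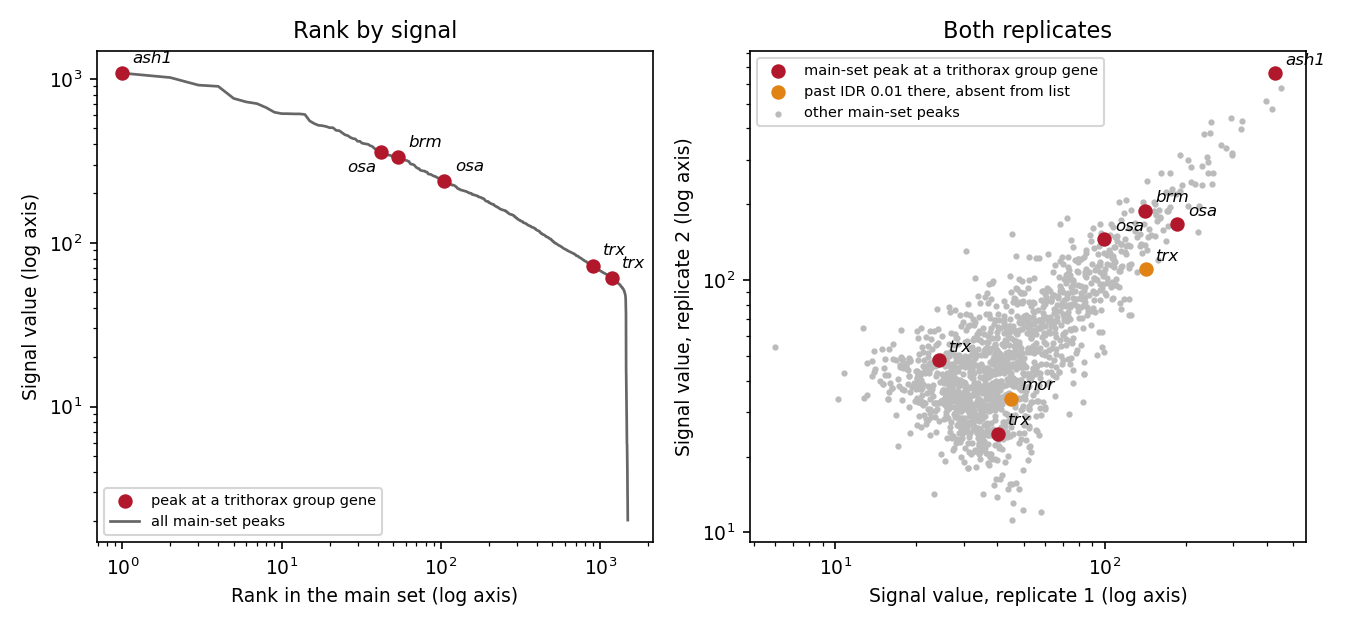
Left, signal value against rank in the main set (both on log axes), with the 6 peaks at trithorax group genes on the curve of all main-set peaks. Right, signal value in replicate 1 against replicate 2 (log axes) for the same sites, the absent trx and mor candidates and the other main-set peaks, where the peaks of ash1, brm and osa lie at the upper right and those of trx in the cloud of weaker peaks. Axes of the replicates are separate signal scales.

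The replicates split the 6 peaks into 4 strong shared ones and 2 weak unshared ones. The peaks of brm and ash1 and both peaks of osa were found in both replicate lists, 4 of 6, against 39.2% of all main-set peaks. Each replicate list held 5 peaks at the 10 genes, at brm, ash1, osa and trx in both. Width followed the same line in part. The usual width in the main set is 304 bp, and 116 peaks, 7.80%, were narrower. Their median signal was 318, and that of all others 77.5. Of the 6 peaks, those of brm (172 bp) and ash1 (278 bp) and the first of osa (174 bp) were narrower, and the absent trx candidate was 127 bp wide.

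Ash2, Iswi, kis, dom and Snr1 had no candidate past the IDR of 0.01 in any list of the pair. The gene ash2, at chr3R:24650125-24653376, had its strongest candidate 3642 bp from its TSS, beyond its end, with a signal of 46.0 and a −log10 IDR of 1.52. The signal there was 19.0 in replicate 1 and 29.0 in replicate 2. The longest gene, kis, at chr2L:210735-250823, had 55 candidates, the most of the 10, and none was past the IDR. Its strongest lay in an intron, with a signal of 47.4, a −log10 IDR of 1.47 and rank 2458 of the ranked candidates, and had a signal of 19.4 in replicate 1 and 26.9 in replicate 2. The next longest gene, osa, had 2 main-set peaks among its 45 candidates. Iswi, at chr2R:12636671-12640628, had its strongest candidate in its coding sequence, with a signal of 34.5, and 18.6 in replicate 1 and 19.2 in replicate 2. The gene dom, at chr2R:21323430-21341847, had its strongest candidate, with a signal of 32.5, in a coding exon, and 21.9 in replicate 1 and 15.2 in replicate 2. These genes showed no peak at this depth, which does not show that Poxn-eGFP is absent there. Just outside the limit of distance, a main-set peak with a signal of 83.0 lay 4385 bp from Iswi and 5 bp from the TSS of muskelin, a gene named here after its values were seen. Just outside the limit of IDR, a candidate in trx had a signal of 55.5 and a −log10 IDR of 1.96.

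Promoter candidates of the listed genes were ordinary in height apart from brm. Of the 10 genes, 9 had a ranked candidate within 500 bp of a TSS and trx had none. The median signal of the strongest such candidate was 22.8 over the 9 listed genes and 24.3 over the 10822 protein-coding genes with one. Among genes at least as long as the median listed gene it was 27.4, over the 1593 with one. Below brm (332.2) and mor (47.9) came Snr1 (31.9), ash2 (25.3), ash1 (22.8), dom (22.0), osa (12.9), Iswi (11.1) and kis (5.74). Over the whole gene with its flanks the order was different, since the median of the strongest candidate was 65.2 over the 10 genes, 35.4 over all protein-coding genes and 44.2 over those at least as long as the median listed gene. The wider span takes in the promoter windows, and over all protein-coding genes too its median was higher, at 35.4 against 24.3. Of the main-set peaks at the listed genes, only that of brm lay within 500 bp of a TSS of the listed gene.

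The 8 sites past the IDR of 0.01 were rich in A and T apart from the exonic peak of trx, and the GC content of the other 7 windows ran from 25.9% to 37.3%. The median over windows of 100 bp to either side of the summit was 31.8% at the 8 sites, against 34.8% over main-set windows and 46.3% over all candidates. Short words were searched on both strands in the same windows, and a match is only a description. TATAAA was in 4 of the 8 (the trx candidate in intron 1, brm and both osa peaks), against 35.4% of main-set windows and 15.3% of all candidate windows. CGATA, part of the sites of DREF and BEAF-32, was in that of ash1 alone (26.5% and 20.1%), and the full DREF word TATCGATA, which contains it, was in none (2.62% and 0.443%). GAGAGAG, a repeat bound by the product of Trl, was in the trx candidate (3.73% and 2.48%). GCCAT, the core of sites of the Polycomb recruiter Pho, was in the second trx peak and the first osa peak (27.3% and 40.2%). GTCACGC, a core word of Pax2/5/8 sites, was in the brm window alone (1.17% and 1.20%). GGTCACAC (1.17% and 0.435%), CAGGTAG (1.17% and 1.23%) and CAGCTG (8.14% and 10.6%) were in none.

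AGTCACT and CACTG were picked after these windows had been read, so their counts at the listed genes are no support for either. AGTCACT was in 3 of the 8 windows, the brm peak, the first osa peak and the trx candidate in intron 1, against 1.86% of main-set windows and 1.61% of candidate windows. CACTG was in 5 of the 8, those 3 with the ash1 peak and the first trx peak, against 47.3% and 34.5%. At brm the words overlap, since AGTCACT is followed by a G there. Inverted repeats, a run of bases and its reverse complement farther along, were also looked for after reading the windows. The brm window has 1 with arms of 11 bp, gcgttcagcac at bases 17 to 27 and gtgctgaacgc at bases 157 to 167, counted from the 5′ end of the printed window. The ash1 window has 1 with arms of 10 bp, catgggcgta at bases 17 to 26 and tacgcccatg at bases 167 to 176. In both, the arms lie on either side of the summit, with 129 and 140 bp between them. Arms of at least 10 bp were in 3 of the 8 windows, the third being that of the first trx peak. They were in 8.28% of main-set windows and in 3.72% of candidate windows. For arms of at least 11 bp the values were 1 of the 8, 3.38% and 1.40%. For arms of at least 8 bp they were 7 of the 8, 49.1% and 31.2%.

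Among other genes of the same pathways, 61 were listed by complex. Main-set summits lay within 500 bp of a TSS of 8 of the 61 (13.1%), against 7.72% of all protein-coding genes. In the gene or within 2 kb they lay at 20 of the 61 (32.8%), against 15.3%. The 61 genes were not matched for length in this comparison. Among protein-coding genes at least as long as the shortest of the 10 trithorax group genes the latter share was 19.4%. Among those at least as long as their median it was 28.3%. By group, promoters carried a peak at 1 of 7 further Brahma complex genes, 0 of 12 COMPASS-type genes, 1 of 7 ISWI complex genes, 1 of 3 CHD genes, 1 of 17 genes of the INO80 and Domino/Tip60 complexes and 4 of 15 other trithorax group and coactivator genes. With the gene body and 2 kb flanks included, peaks were at 2 of 7 Brahma complex, 4 of 12 COMPASS-type and 2 of 7 ISWI complex genes. In the same way they were at 2 of 3 CHD genes, 3 of 17 INO80 and Domino/Tip60 genes and 7 of 15 others.

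The strongest of the 8 promoter peaks was at Ino80, the ATPase gene of the INO80 complex, with a signal of 164.8, rank 227, and a summit 77 bp from the TSS. It was the only one of the 6 strongest that was in both replicate lists. Trl, which encodes the GAGA factor, had a promoter peak with a signal of 123.3, rank 382, found in the list of replicate 2 and not in that of replicate 1. The peaks at skd, a Mediator kinase module gene (signal 97.8, rank 538), and at Chd1, a CHD-family remodeller gene (signal 75.6, rank 829), were nearer to the TSS of Pdss2 and Bem46. The promoter peaks of lawc (signal 65.2) and psq, a BTB-domain DNA-binding protein gene (signal 63.2), were in the list of neither replicate. All 6 were lower than the brm peak. In gene bodies and flanks, Caf1-55, which encodes a histone-binding WD40 protein of the NURF complex, had a peak with a signal of 613.7, and the strongest of the 3 peaks counted for Trl had a signal of 612.1. Wdr82, a COMPASS-type subunit gene, had a peak with a signal of 518.6. Caf1-55, Wdr82 and this value of Trl were picked after the values were seen, as the highest among the 61 genes. Neither Caf1-55 nor Wdr82 had a promoter peak. Whether these peaks and that of Trl lie nearer to the TSS of another gene was not determined.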

How the data were processed

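Peak lists on dm6, thresholded and ranked, were deposited for each replicate and for the pair, with a conservative version of the pair's lists. Each peak's signal is the authors' enrichment value, normalised in a way that no file states, and the −log10 of the IDR is deposited for ranked candidates. The sources used here name no aligner, peak caller or read depth. Groups and replicate numbers came from the labels.

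Summits were placed on genes of Ensembl release 115 for the same assembly, and windows of 100 bp to either side of summits were read from RefSeq release 6, with Python 3.11.15, pandas 2.3.3 and pysam 0.24.0. A replicate list supports a peak that it overlaps by at least 1 bp. The placement of peaks on genes was tested on simulated data. No test between groups was possible with 1 group, so shares over all genes, peaks or candidates are given in place of tests. Peaks are not independent of each other, and the replicates share a further file per the deposited notes.

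The genes, word lists and alternatives were chosen with earlier results of these data known. The text names the 10 genes, the genes of the TSSs nearest to their peaks, up to 6 pathway genes with promoter peaks in order of signal, and the neighbours in rank of the brm peak. All 61 pathway genes were matched, 1 of them by a RefSeq synonym. Alternatives were other flanks, TSS windows, IDR thresholds and overlap rules, the conservative list and each replicate left out.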

Additional observations from a re-analysis of the deposited data

How the results depend on the processing

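With the nearest TSS required to be the gene's own, 0 genes in place of 1 had a promoter peak. With a flank of 0 bp, 2 genes in place of 4 had a peak, and 3 peaks in place of 6 were counted. Leaving out peaks within 500 bp of another protein-coding gene's TSS, a choice made after seeing the data, also gave 2 genes and 3 peaks. Without replicate 1 or 2, so on the list of the other replicate alone, the counts were 1 to 1 gene with a promoter peak, 4 to 4 genes and 5 to 5 peaks. The count of trx peaks was 1 without either replicate and 0 at an IDR of 0.001, in place of 2. Counts for each gene were recomputed only on the conservative list, without each replicate and at an IDR of 0.001, where 37 stayed within 1.5 times and 3 moved, all at trx. The 37 include every count for the 6 genes with no main-set peak, which was 0 at each of these settings. Other TSS windows, flanks of 1 and 5 kb, overlap rules and the conservative list kept the counts within 1.5 times. At an IDR of 0.001, 3 genes in place of 4 had a peak and 4 peaks in place of 6 were counted, also within 1.5 times. No paired analysis was possible because both samples belong to 1 group. Unknown depth limits what the genes with no peak show.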
